A study of Mus musculus with 12 samples.

Results

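The transcripts of 10 enzymes of de novo purine synthesis were followed in mouse embryonic fibroblasts treated with deazaneplanocin A, adenine, or S-adenosylmethionine. The members were chosen by symbol (Prps1, Ppat, Gart, Pfas, Paics, Adsl, Atic, Impdh1, Impdh2, and Gmps), matched to the table by Ensembl identifier, and all 10 were found among its 12591 genes. The cells came from PER2::LUC knock-in mice on a C57 background, whose PER2 clock protein carries a luciferase, and they were confluent when the medium was changed. For 24 h, the fresh medium held 10 μM deazaneplanocin A (DZ, an inhibitor of S-adenosylhomocysteine hydrolase, AHCY), 1 mM adenine, 1 mM S-adenosylmethionine (SAM, the methyl donor of the cell), or no drug (CTL), and 3.3 mM HCl, the solvent of adenine, was present in all 4 groups, CTL included. Each group had 3 dishes and 1 polyadenylated RNA library per dish. The dishes were replicates of one cell preparation as far as the labels say, so p-values measure the spread between dishes.

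Cells build purines on ribose that has been activated as phosphoribosyl pyrophosphate (PRPP). PRPP synthetase 1 (Prps1) makes PRPP, the amidotransferase PPAT commits it to the pathway and is inhibited by the purine nucleotides at its end, and a chain of enzymes (GART, PFAS, PAICS, ADSL, and ATIC) closes the ring as inosine monophosphate (IMP). Both GART and ATIC take a one-carbon unit from 10-formyl-tetrahydrofolate. IMP dehydrogenases (IMPDH1 and IMPDH2) and GMP synthetase (GMPS) lead from IMP to GMP, whereas ADSL acts again in the branch to AMP. Free adenine enters the AMP pool by salvage, in a reaction that also uses PRPP. The enzymes are known to gather in clusters in the cytoplasm when purines are short, and genes of the pathway are known targets of MYC.

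The values are log2 CPM (the reads of a gene relative to its library, on library sizes scaled by the authors), and a log2 fold change is a difference between group means on this scale. Libraries held from 45649534 to 56789090 reads on the genes of the table, and the 10 genes had between 1536 and 17433 reads in each library, well above the lowest count of any gene in the table (46). Dishes of one group differed by more than sampling noise. Over all genes, the chi-square divided by its degrees of freedom was 4.76 to 7.07 for pairs without SAM replicate 3 and 15.7 and 19.1 for both pairs with it. SAM replicate 3 thus stood apart from its group, and some SAM values of the 10 genes are also given without it. All 8 fibroblast markers examined were in the table, 6 of them at 7.91 log2 CPM or more in every library, and Thy1 (3.44 to 4.10) and Pdgfra (3.10 to 5.78) lower. No endothelial (0 of 3) or epithelial (0 of 4) marker was in the table. Of 6 leukocyte markers, only Cd68 was, at 1.45 to 4.14 log2 CPM, a range that overlaps those of Thy1 and Pdgfra. The authors' scaling factors differed between groups, and plain read totals would shift the median over all genes by moving it from -0.015 to 0.11 for SAM and from -0.0030 to 0.059 for adenine, so fold changes are relative to the authors' scaling.

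The pathway did not move as a block in any treatment. DZ raised 4 of the 10 genes (Prps1, Gart, Pfas, and Adsl) and lowered 3 (Paics, Impdh2, and Gmps). Adenine raised 3 (Ppat, Gart, and Pfas) and lowered 3 (Paics, Atic, and Gmps), and SAM raised 3 (Prps1, Ppat, and Pfas) and lowered 4 (Paics, Adsl, Atic, and Impdh1). A gene was called at a Benjamini-Hochberg FDR under 0.01 in limma, fitted to all 12591 genes in 1 model of the 4 groups. The 7 calls under DZ stand beside 45.9% of all genes called (22.6% higher and 23.4% lower), the 6 under adenine beside 61.6% (30.6% higher and 31.0% lower), and the 7 under SAM beside 69.3% (33.7% higher and 35.7% lower). Under adenine and SAM the shares of the 10 genes (60% and 70%) were near these backgrounds, and under DZ the share was 70%, where 1 gene makes 10%. Without SAM replicate 3, 7 genes were again called under SAM. The 3 treatments share the same CTL dishes. The median log2 fold change of the 10 genes was 0.15 under DZ, where it kept its sign under each scaling. It was -0.051 under adenine (0.011 with plain read totals) and 0.0061 under SAM (-0.033 after median centring and 0.13 with plain read totals), beside medians over all genes of -0.0057, -0.0030, and -0.015.

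**Figure D1:**
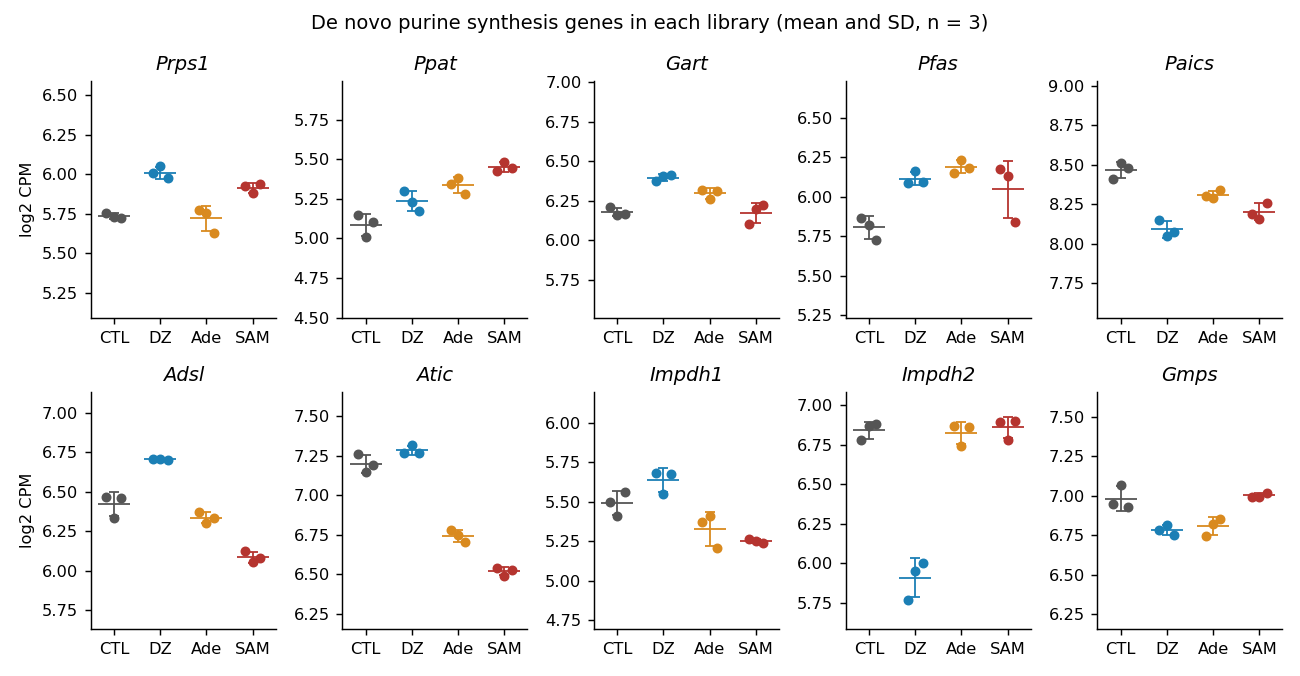
Level of each gene in log2 CPM (vertical axes, each spanning 1.5 log2 units around the gene's own range) in the 12 libraries, by group (CTL, DZ, Ade for adenine, SAM). Points are dishes, and horizontal and vertical bars are the mean and SD of 3 dishes. Impdh2 sits between 5.77 and 6.004 under DZ and above 6.74 in the other 9 libraries, and Atic falls stepwise from CTL to adenine and SAM.

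**Figure D2:**
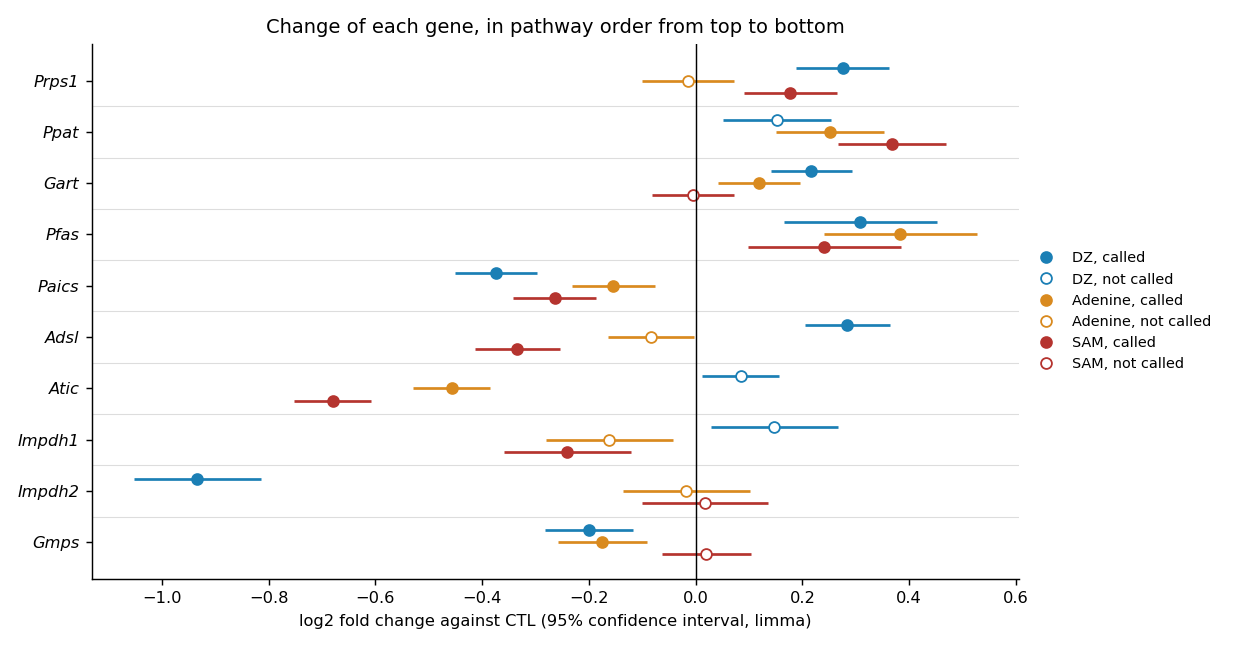
Log2 fold change of each gene (horizontal axis) under DZ, adenine, and SAM against CTL, with 95% confidence intervals from limma and the genes in pathway order. Filled points passed an FDR of 0.01 and open points did not. Paics lies to the left of 0 and Pfas to the right in all 3 treatments, while Adsl and Prps1 differ in direction or size between them.

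The changes were mostly of ordinary size for these treatments. Across all genes, the median absolute log2 fold change was 0.18 under DZ, 0.27 under adenine, and 0.34 under SAM. The largest change was that of Impdh2 under DZ, whose absolute log2 fold change was above that of 97.6% of all genes. Atic exceeded 70.1% of all genes under adenine and 75% under SAM, and Paics exceeded 78.8% under DZ. The other changes exceeded at most 72.0% of the genes, a share reached by Pfas under DZ.

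Levels of different genes were ranked as CPM per kb of the longest annotated transcript (GENCODE vM39). In CTL, Paics was highest at 100.7 ± 3.61 CPM per kb (SD, n = 3), followed by Impdh2 at 59.5 ± 2.23, Atic at 44.5 ± 1.77, and Prps1 at 25.4 ± 0.319. Adsl (15.7 ± 0.811), Gart (14.5 ± 0.280), and Gmps (13.8 ± 0.747) came next, and the dishes of Adsl and Gart, and those of Gart and Gmps, overlapped. Impdh1 (9.59 ± 0.507), Pfas (8.10 ± 0.393), and Ppat (7.60 ± 0.370), which catalyzes the committing step, were lowest, and the dishes of Pfas and Ppat overlapped. The same 10 genes held other places after treatment. Under DZ, Impdh2 (31.2 ± 2.60) came down to overlap Prps1 (30.7 ± 0.813), and under SAM, Atic (27.7 ± 0.496) came down to overlap Prps1 (28.7 ± 0.589). Under SAM, Impdh1 (8.11 ± 0.0772) was last, below Ppat (9.80 ± 0.198). The order depended on the length used. With the median length of the coding transcripts, Pfas moved from place 9 to place 4 in CTL, and under SAM Impdh1 (15.6) held place 8, above Ppat (10.98) at place 10, as in CTL. By that length Impdh2 under DZ and Atic under SAM were at place 5, below Prps1 at place 4.

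**Figure D3:**
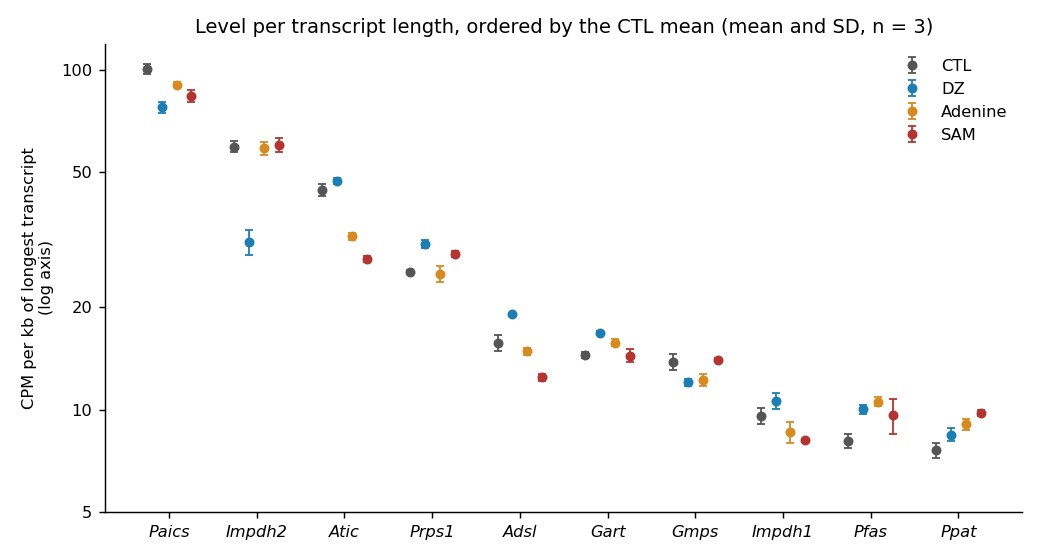
Level of each gene as CPM per kb of its longest transcript (vertical log axis), ordered by the mean in CTL. Points and bars are the mean and SD of 3 dishes in each group. Paics is highest in all 4 groups, from 77.7 CPM per kb under DZ to 100.7 in CTL, and Impdh2 under DZ is near Prps1.

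Promoters were read from RefSeq (GRCm38.p6, 250 bases before to 50 after the start of transcription), which gave 1 window for 8 of the genes, 2 for Impdh1, and none for Pfas. They were searched on both strands for the E-box CACGTG, the site bound by MYC and MAX and by the clock proteins CLOCK and BMAL1, and for TGATGNAAT, a form of the site bound by ATF4 with CEBP partners. The E-box was in 3 of the 9 genes with a window (33.3%), against 8.09% of all 27025 genes in the promoter table and 12.1% of the 8821 genes that are also in the expression table. The 3 genes with an E-box were each lowered by at least 1 treatment against CTL. Of the genes whose windows held no E-box, Adsl, Impdh1, and Gmps were each lowered by at least 1, and Prps1, Ppat, and Gart by none. Whether the E-box had a part in any change was not tested. These are the sequences around the 3 E-boxes, shown because the 3 genes are the highest in CTL per kb. They are read 5′ to 3′ on the strand of the gene with the E-box in capitals.
Paics: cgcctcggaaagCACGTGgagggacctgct
Impdh2: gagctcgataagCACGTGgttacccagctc
Atic: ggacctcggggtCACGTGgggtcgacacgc
The E-box began 203 bases before the start of Paics (chr5:76951087-76951116 for the stretch shown, plus strand), 110 before that of Impdh2 (chr9:108560314-108560343, plus strand), and 7 before that of Atic (chr1:71557137-71557166, plus strand). Only that of Atic was within the 100 bases before to 50 after the start, where 5.003% of all genes and 7.78% of those in the expression table held one, against 11.1% of the 9 genes. In Paics, the E-box lies inside the neighboring gene Ppat, which is read from the other strand and starts 276 bp beyond the start of Paics in RefSeq. The motif TGATGNAAT was in none of the 9 genes, and in 1.08% of all genes. The 250 bases before the start of Atic, the gene with the largest changes under adenine and SAM, had the E-box at their end (chr1:71556906-71557155, plus strand).
Atic: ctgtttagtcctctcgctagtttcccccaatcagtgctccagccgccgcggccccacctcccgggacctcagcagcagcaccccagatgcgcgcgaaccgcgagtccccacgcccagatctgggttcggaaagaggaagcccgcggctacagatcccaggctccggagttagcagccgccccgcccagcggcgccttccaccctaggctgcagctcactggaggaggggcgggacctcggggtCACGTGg
These matches describe letters and are not evidence of binding, and the 3 genes with an E-box did not share a pattern across treatments, as described for each of them in the paragraphs on Paics, Atic, and Impdh2.

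Prps1 (chromosome X, 139346452 to 139376893, GRCm39) supplies the PRPP on which both synthesis and salvage depend. It was at 5.75, 5.73, and 5.72 log2 CPM in CTL, 6.01, 6.05, and 5.97 under DZ, 5.78, 5.75, and 5.63 under adenine, and 5.92, 5.88, and 5.93 under SAM. All DZ and SAM dishes were above all CTL dishes, while the adenine dishes overlapped CTL. Prps1 rose by 0.28 on the log2 scale under DZ (SE 0.041, adjusted p = 3.70e-05 from limma) and by 0.18 under SAM (SE 0.041, adjusted p = 9.69e-04), with a log2 fold change of -0.015 (95% confidence interval -0.10 to 0.072) under adenine. The second synthetase gene, Prps2, which was no member, rose too (0.23 under DZ and 0.18 under SAM) and had a log2 fold change of 0.12 (adjusted p = 0.053) under adenine. The ratio of Prps2 to Prps1 within a library, a comparison chosen after the values were seen, was 1.45 in CTL, 1.41 under DZ, 1.59 under adenine, and 1.45 under SAM, and no treatment was separated from CTL. A stretch of 896 bp of Prps1 is 95.9% identical to an annotated transcript of Mipol1, which fell under adenine (-0.85) and SAM (-1.28), so some reads may have been shared between them.

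Ppat (chromosome 5, 77061096 to 77099436, minus strand) encodes the enzyme of the committing step. Its values were 5.15, 5.01, and 5.10 log2 CPM in CTL, 5.30, 5.23, and 5.18 under DZ, 5.35, 5.38, and 5.28 under adenine, and 5.43, 5.48, and 5.44 under SAM. Every treated dish was above every CTL dish. Ppat rose by 0.25 under adenine (SE 0.047, adjusted p = 2.03e-04 from limma) and by 0.37 under SAM (SE 0.047, adjusted p = 3.61e-06), a change of 29.0%. Under DZ the log2 fold change of 0.15 narrowly missed the threshold (adjusted p = 0.0128), and it passed with a value of 0.18 with plain read totals, without CTL replicate 1, or without DZ replicate 3.

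Gart (chromosome 16, 91416576 to 91444536) encodes a protein with 3 enzymatic activities, one of which takes up the first one-carbon unit of the ring. Its levels were 6.21, 6.16, and 6.16 log2 CPM in CTL, 6.37, 6.40, and 6.41 under DZ, 6.32, 6.26, and 6.31 under adenine, and 6.10, 6.20, and 6.22 under SAM. The DZ and adenine dishes were above CTL, and the SAM dishes overlapped it. The rise under DZ was 0.22 (SE 0.036, adjusted p = 1.11e-04 from limma). The smaller rise under adenine, 0.12 (SE 0.036, adjusted p = 0.00804), was lost in several alternatives, among them those without the variance trend, after median centring (0.068), after quantile normalization, and without CTL replicate 2, CTL replicate 3, adenine replicate 1, or adenine replicate 3 (0.11 in each). Under SAM the log2 fold change was -0.0051 (95% confidence interval -0.082 to 0.072), and plain read totals turned it to a called rise of 0.12.

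Pfas (chromosome 11, 68875996 to 68899303), which encodes the glutamine-using enzyme of the next step, was called higher in all 3 treatments. The share of all genes called higher in all 3 was not counted. Its levels were 5.87, 5.82, and 5.73 log2 CPM in CTL, 6.09, 6.16, and 6.09 under DZ, 6.15, 6.23, and 6.18 under adenine, and 6.17, 6.13, and 5.84 under SAM. SAM replicate 3 lay within the CTL dishes and the other 8 treated dishes lay above them. Pfas rose by 0.31 under DZ (SE 0.067, adjusted p = 0.0011 from limma) and by 0.38 under adenine (SE 0.067, adjusted p = 1.02e-04). Under SAM the rise of 0.24 (SE 0.067, adjusted p = 0.00408) was 0.34 without SAM replicate 3 and was lost without SAM replicate 1 (0.18), SAM replicate 2 (0.20), or CTL replicate 3 (0.20), without the variance trend, after median centring, and in a separate model of SAM and CTL.

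Paics (chromosome 5, 77099139 to 77116370, plus strand) encodes a bifunctional enzyme in the middle of the pathway, and was called lower in all 3 treatments. The share of all genes called lower in all 3 was not counted. It was at 8.41, 8.51, and 8.48 log2 CPM in CTL, 8.15, 8.05, and 8.07 under DZ, 8.30, 8.29, and 8.34 under adenine, and 8.19, 8.16, and 8.26 under SAM. Every treated dish was below every CTL dish. Paics fell by 0.37 under DZ (SE 0.036, adjusted p = 5.24e-07 from limma), by 0.15 under adenine (adjusted p = 0.00138), and by 0.26 under SAM (adjusted p = 7.17e-06). The call under adenine was lost after quantile normalization (-0.015) and with plain read totals (-0.092), and the one under SAM after quantile normalization (-0.091). Quantile normalization sets the value of every gene by its rank within its library. Why the calls were lost was not tested. A stretch of 1971 bp of Paics is 94.0% identical to an annotated transcript of Arhgap12, with log2 fold changes of 0.11 (not called), -0.49, and -0.56 under DZ, adenine, and SAM, so that reads may have been shared.

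Paics and Ppat lie head to head on chromosome 5, with their first exons on opposite strands and 298 bp of overlap (77099139 to 77099436), which is 8.48% of the longest Paics transcript and 6.67% of that of Ppat. They moved apart in all 3 treatments. The ratio of Paics to Ppat within a library, which depends neither on scaling nor, when groups are compared, on transcript length, was 9.60, 11.3, and 10.4 in CTL, 7.22, 7.06, and 7.45 under DZ, 7.76, 7.51, and 8.33 under adenine, and 6.78, 6.37, and 7.05 under SAM. All 9 treated dishes were below all CTL dishes. On the log2 scale the ratio fell by 0.53 ± 0.073 (SE, n = 3) under DZ, by 0.41 ± 0.082 under adenine, and by 0.63 ± 0.081 under SAM, each with a two-sided exact permutation p of 0.1, the smallest that 3 dishes against 3 allow. This pair was chosen after its values had been seen. The library kit keeps the strand, but the strand setting of the read counting is not given in the sources used here, and reads in the overlap could have been counted for either gene.

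**Figure D4:**
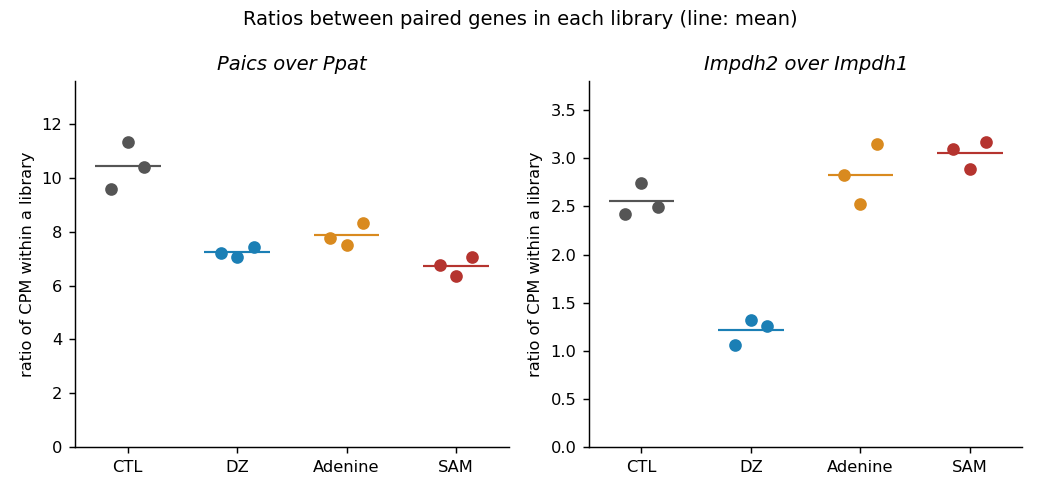
Ratio of CPM between neighboring or paralogous genes within each library (vertical axes, starting at 0), by group, with points for dishes and a line for the group mean. The ratio of Paics to Ppat is between 9.60 and 11.3 in CTL and at most 8.33 in treated dishes, and that of Impdh2 to Impdh1 is at most 1.32 under DZ and at least 2.43 elsewhere.

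Adsl (chromosome 15, 80832518 to 80855148) acts in the pathway to IMP and again on the way from IMP to AMP, and it moved in opposite directions under DZ and SAM. Its levels were 6.47, 6.33, and 6.46 log2 CPM in CTL, 6.70, 6.71, and 6.70 under DZ, 6.37, 6.30, and 6.33 under adenine, and 6.12, 6.05, and 6.08 under SAM. DZ dishes were all above CTL and SAM dishes all below, with adenine dishes overlapping CTL. Adsl rose by 0.28 under DZ (SE 0.038, adjusted p = 1.26e-05 from limma) and fell by 0.33 under SAM (SE 0.038, adjusted p = 7.56e-07). Under adenine, the log2 fold change was -0.084 (adjusted p = 0.057), and it passed the threshold after median centring (-0.14) or without CTL replicate 2 (-0.13).

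Atic (chromosome 1, 71596294 to 71619241) encodes the bifunctional enzyme that takes up the second one-carbon unit and closes the ring. It was at 7.26, 7.15, and 7.19 log2 CPM in CTL, 7.26, 7.32, and 7.27 under DZ, 6.78, 6.75, and 6.70 under adenine, and 6.54, 6.49, and 6.53 under SAM. The adenine dishes were below all CTL dishes and the SAM dishes were below all adenine dishes. Atic fell by 0.46 under adenine (SE 0.034, adjusted p = 7.56e-09 from limma) and by 0.68 under SAM (SE 0.034, adjusted p = 4.31e-11), so that its level fell by 27.2% under adenine and fell by 37.6% under SAM. Under DZ its log2 fold change was 0.084 (95% confidence interval 0.012 to 0.16, adjusted p = 0.045), which was not called. Both falls were called in every alternative fit, with log2 fold changes of -0.51 to -0.40 for adenine and -0.72 to -0.56 for SAM.

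Impdh1 (chromosome 6, 29200429 to 29216363) and Impdh2 (chromosome 9, 108437485 to 108442783) encode the isozymes that turn IMP toward GMP, IMPDH2 being the form usually raised in growing cells. Impdh2 was at 6.78, 6.87, and 6.88 log2 CPM in CTL, 5.77, 5.95, and 6.004 under DZ, 6.87, 6.74, and 6.86 under adenine, and 6.89, 6.78, and 6.90 under SAM. The DZ dishes were far below all others, which overlapped among themselves. Impdh2 fell by 0.93 under DZ (SE 0.056, adjusted p = 3.08e-09 from limma) and so fell by 47.6%, and had log2 fold changes of -0.018 (95% confidence interval -0.14 to 0.10) under adenine and 0.017 (-0.10 to 0.14) under SAM. The fall under DZ lay between -0.98 and -0.86 over the alternative fits.

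Reads of Impdh2 may have been shared with its processed pseudogene Impdh2-ps on chromosome 8, which is 99.7% identical over 1545 bp and was in the table at 5.96, 5.87, and 5.91 log2 CPM in CTL and at 5.25, 5.05, and 5.09 under DZ. Impdh2-ps was lower under DZ (-0.78, adjusted p = 1.59e-08 from limma) and under adenine (-0.20, adjusted p = 0.00375), and had a log2 fold change of -0.095 (adjusted p = 0.13) under SAM. When the CPM of gene and pseudogene were added, a choice made after the data were seen, the log2 fold change was -0.88 ± 0.028 (SE, n = 3) under DZ, -0.079 ± 0.033 under adenine, and -0.020 ± 0.027 under SAM.

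Impdh1 moved less. It was at 5.50, 5.41, and 5.56 log2 CPM in CTL, 5.69, 5.55, and 5.68 under DZ, 5.37, 5.41, and 5.21 under adenine, and 5.26, 5.25, and 5.24 under SAM. The SAM dishes were below CTL, whereas the DZ and adenine dishes overlapped it. Impdh1 fell by 0.24 under SAM (SE 0.056, adjusted p = 0.00112 from limma), a call lost with plain read totals (-0.12). It had log2 fold changes of 0.15 (adjusted p = 0.034) under DZ and -0.16 (adjusted p = 0.018) under adenine, and the latter passed the threshold after median centring (-0.21), after quantile normalization (-0.20), and without CTL replicate 2 or adenine replicate 2 (-0.20 in each). The ratio of Impdh2 to Impdh1 within a library was 2.55 in CTL and 1.21 under DZ, a log2 change of -1.08 ± 0.11 (SE, n = 3, exact permutation p = 0.1, the smallest possible). It was 2.82 under adenine, overlapping CTL (exact permutation p = 0.2), and 3.05 under SAM, where all dishes were above CTL (0.26 ± 0.067, exact permutation p = 0.1). This pair, too, was chosen after its values were seen.

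Gmps (chromosome 3, 63883515 to 63931037) encodes the last enzyme on the way to GMP. Its levels were 6.95, 7.07, and 6.93 log2 CPM in CTL, 6.78, 6.81, and 6.75 under DZ, 6.75, 6.82, and 6.85 under adenine, and 6.99, 6.99, and 7.02 under SAM. DZ and adenine dishes lay below CTL and SAM dishes within it. Gmps fell by 0.20 under DZ (SE 0.039, adjusted p = 4.57e-04 from limma) and by 0.17 under adenine (SE 0.039, adjusted p = 8.75e-04), the latter call being lost with plain read totals (-0.11). Under SAM the log2 fold change was 0.020 (95% confidence interval -0.063 to 0.10), and it was called at 0.14 with plain read totals. Impdh2 and Gmps, which act one after the other between IMP and GMP, were both lower under DZ, where 23.4% of all genes were called lower. Impdh1, for the same step as Impdh2, had a log2 fold change of 0.15 under DZ (not called). Guk1, for the step after GMP, rose by 0.28.

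Adenine and SAM, given at the same dose and time, were also compared directly, a comparison that shares no CTL dish. SAM dishes had more Prps1 and Gmps and less Gart, Adsl, and Atic than adenine dishes, 5 calls of 10 beside 42.7% of all genes (20.8% higher and 22.0% lower in SAM). Adsl was lower by a log2 fold change of -0.25 (SE 0.038, adjusted p = 5.01e-05 from limma) and Atic by -0.22 (SE 0.034, adjusted p = 5.71e-05). Prps1 was higher by 0.19 (SE 0.041, adjusted p = 9.84e-04) and Gmps by 0.19 (SE 0.039, adjusted p = 6.18e-04). These 4 calls held in all alternative fits. The lower Gart (-0.12, adjusted p = 0.00872) did not. It was lost in several alternatives, among them those without the variance trend, after median centring, quantile normalization, or scaling by read totals (-0.064), in a separate model of the 2 groups, and without adenine replicate 1 (-0.11), adenine replicate 3 (-0.12), SAM replicate 1 (-0.088), or SAM replicate 2 (-0.14). For the other 5 genes no difference was called. The 95% confidence interval of the difference, SAM minus adenine, was 0.014 to 0.22 for Ppat, -0.29 to 5.76e-04 for Pfas, -0.19 to -0.032 for Paics, -0.20 to 0.041 for Impdh1, and -0.083 to 0.15 for Impdh2. The difference in Ppat was called with plain read totals (0.18), and that in Paics without SAM replicate 3 (-0.14). For Pfas, the difference of -0.14 shrank to -0.039 without SAM replicate 3. DZ, given at another dose, was not tested against them, and its values stand beside theirs above.

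As a description over the 12 libraries, which share their group differences, some members moved together and others ran against each other. Pearson's r was 0.90 between Adsl and Atic, 0.90 between Adsl and Impdh1, and 0.90 between Atic and Impdh1. Paics ran against Prps1 (-0.84), Ppat against Atic (-0.81), Adsl against Impdh2 (-0.82), and Gart against Gmps (-0.85). Among all genes, the one most like Atic over the 12 libraries was Rras2 (r = 0.995), the one most like Adsl was Rrp12 (0.989), and the one most like Impdh2 was Gm32618 (0.983). Those most like Prps1, Ppat, Gart, Pfas, Paics, Impdh1, and Gmps were Rnf7 (0.972), Gm9732 (0.968), 2310011J03Rik (0.969), Zfhx3 (0.973), Pcgf3 (0.952), Jtb (0.968), and Akr1b8 (0.940), respectively.

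Genes next to the pathway also moved in both directions. Their counts stand beside the shares of all genes called, which were 22.6% higher and 23.4% lower under DZ, 30.6% and 31.0% under adenine, and 33.7% and 35.7% under SAM. Of 10 genes of PRPP supply and of the branches to AMP and GMP in the table, DZ raised 5 and lowered 1, adenine raised 1 and lowered 5, and SAM raised 4 and lowered 3. These are 60%, 60%, and 70% called, near the share of all genes for adenine (61.6%) and SAM (69.3%) and above that for DZ (45.9%). Ampd3, an AMP deaminase, rose under DZ (0.61) and SAM (0.66), and Gmpr2, which returns GMP to IMP, by 0.75 under SAM. Prps1l3, annotated as like Prps1, rose by 0.41, 0.34, and 0.42 under DZ, adenine, and SAM. Prpsap2, a regulator of PRPP synthetase, fell by 0.35, 0.40, and 0.45, whereas its relative Prpsap1 rose under DZ (0.33) and fell by 0.18 under adenine. Guk1, which phosphorylates GMP, rose under DZ (0.28) and fell by 0.42 under adenine and by 0.40 under SAM. On the branch to AMP, Adss1 was low (2.34 log2 CPM in CTL) and fell by 1.63 under adenine, and Adss2 fell by 0.16 under SAM. Ampd2, another AMP deaminase, fell by 0.26 under adenine.

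Of 13 salvage and breakdown genes, DZ raised 8 and lowered 1, adenine raised 3 and lowered 4, and SAM raised 5 and lowered 4, which are 69.2%, 53.8%, and 69.2% of them. Of all genes, 45.9%, 61.6%, and 69.3% were called, so the share under SAM was near that of all genes and the share under adenine below it. Xdh, which makes uric acid, rose by 1.27 under DZ and fell by 0.69 under adenine. Ada and Pnp, which break down adenosine and other purine nucleosides, rose under DZ (0.69 and 0.61), and Pnp rose under SAM (0.64). Dck, a deoxynucleoside kinase, rose under adenine (1.33) and SAM (1.46), and Nt5e, which makes adenosine outside the cell, fell by 1.29 and 1.62. Aprt, which joins adenine to PRPP and was singled out after its values were seen, rose by 0.35 under DZ and fell by 0.48 under both adenine and SAM.

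Of 12 one-carbon and serine genes in the table, 6 were higher and 0 lower under DZ, 2 higher and 5 lower under adenine, and 2 higher and 8 lower under SAM, with medians of 0.16, -0.027, and -1.24. Called were 50%, 58.3%, and 83.3% of the list, beside 45.9%, 61.6%, and 69.3% of all genes. Under SAM, the 3 largest falls were in mitochondrial folate enzymes, namely Aldh1l2 (-3.48), Mthfd1l (-1.86), and Mthfd2 (-1.82). Psph, one of the serine genes of the list, fell by nearly as much as Mthfd2 under SAM (-1.8). Aldh1l2 also fell by 0.71 under adenine. In contrast, Shmt1, the cytosolic serine hydroxymethyltransferase, rose by 0.74, 0.60, and 0.41 under DZ, adenine, and SAM. Its mitochondrial counterpart Shmt2 rose under DZ (0.34), was not called under adenine (0.089), and fell by 1.37 under SAM. Of 7 pentose phosphate genes, 2 were higher and 3 lower under DZ, 0 higher and 6 lower under adenine, and 1 higher and 4 lower under SAM, or 71.4%, 85.7%, and 71.4% called, the last near the 69.3% of all genes. Tkt, a transketolase, fell by 0.90 under DZ and by 0.62 under adenine, and its log2 fold change under SAM was -0.0094 (not called). Pgls, an enzyme of the oxidative branch, fell by 0.22 under DZ and had log2 fold changes of -1.059 under adenine and -1.147 under SAM. Of the same branch, G6pdx rose under DZ (0.27) and fell by 0.20 under adenine and by 0.31 under SAM, and Pgd rose under SAM (0.83). In the branch that interconverts sugar phosphates, Rpe fell by 0.69 under adenine and Rpia by 0.85 under SAM.

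Known regulators of the pathway and the state of growth were measured beside it. Myc rose by 0.30 under DZ and fell by 0.31 under adenine and by 0.69 under SAM. Of 10 genes of the MYC network, 2 were higher and 3 lower under DZ, 2 higher and 5 lower under adenine, and 2 higher and 6 lower under SAM, which are 50%, 70%, and 80% called beside 45.9%, 61.6%, and 69.3% of all genes. Mycl fell by 0.65 under adenine and 0.76 under SAM, and Mnt, a repressor of the network, by 0.37 and 0.63. Mxd4, another repressor, fell by 0.59 under DZ and rose under adenine (0.36) and SAM (0.52), and Mxi1 fell by 0.23 under DZ.

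Of 14 genes for ATF4 and its targets, 6 were higher and 3 lower under DZ, 1 higher and 11 lower under adenine, and 0 higher and 12 lower under SAM, with medians of 0.075, -0.44, and -2.39. Called were 64.3%, 85.7%, and 85.7% of them, against the same shares of all genes as above. Trib3, an inhibitor of ATF4 that is also its target, fell by 4.05 under SAM and by 1.25 under adenine. Ppp1r15a, which dephosphorylates the initiation factor eIF2, fell by 2.90 and 1.25 in these treatments. Slc7a11, a cystine transporter, fell by 3.02 under SAM and was not called under adenine (-0.16). Ddit3, which encodes CHOP, fell by 2.88 under SAM and by 0.85 under adenine. Under DZ, Atf5 fell by 0.65, and Slc7a5, an amino acid transporter, and Nupr1 rose (0.52 and 0.40). Atf5, Slc7a5, and Nupr1 were lower under adenine (-0.56, -0.14, and -0.43) and under SAM (-2.64, -2.24, and -1.24).

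Proliferation genes went the other way, as all 19 were called under adenine and under SAM, 18 of them higher (100% called beside 61.6% and 69.3%), with medians of 1.36 and 1.74, against 11 higher and 1 lower under DZ (63.2% called beside 45.9%) with a median of 0.21. Aurkb and Bub1, which act in mitosis, rose under adenine (1.89 and 1.81) and SAM (2.71 and 2.41), as did Mki67 under adenine (2.02) and the cyclin gene Ccna2 under SAM (2.26). Under DZ, Mcm3, Rrm1, and Ccnb1 rose most (0.48, 0.48, and 0.38). Mcm2 was the one lower under adenine (-0.11) and SAM (-0.13). In the direct comparison of SAM with adenine, the called genes of these lists with the largest differences included Slc7a11 (-2.86), Trib3 (-2.81), Aldh1l2 (-2.77), Chac1 (-2.46), Psph (-1.71), and Mthfd1l (-1.48) on the lower side and Adss1 (1.06), Aurkb (0.83), Pgd (0.77), Ampd3 (0.69), Xdh (0.65), and Tkt (0.61) on the higher side. Whether any of these moved the purine genes was not tested, and in bulk RNA fewer cells of a kind and less RNA per cell cannot be told apart. These lists were compiled with results of the same samples known, so their directions are no independent evidence.

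**Figure D5:**
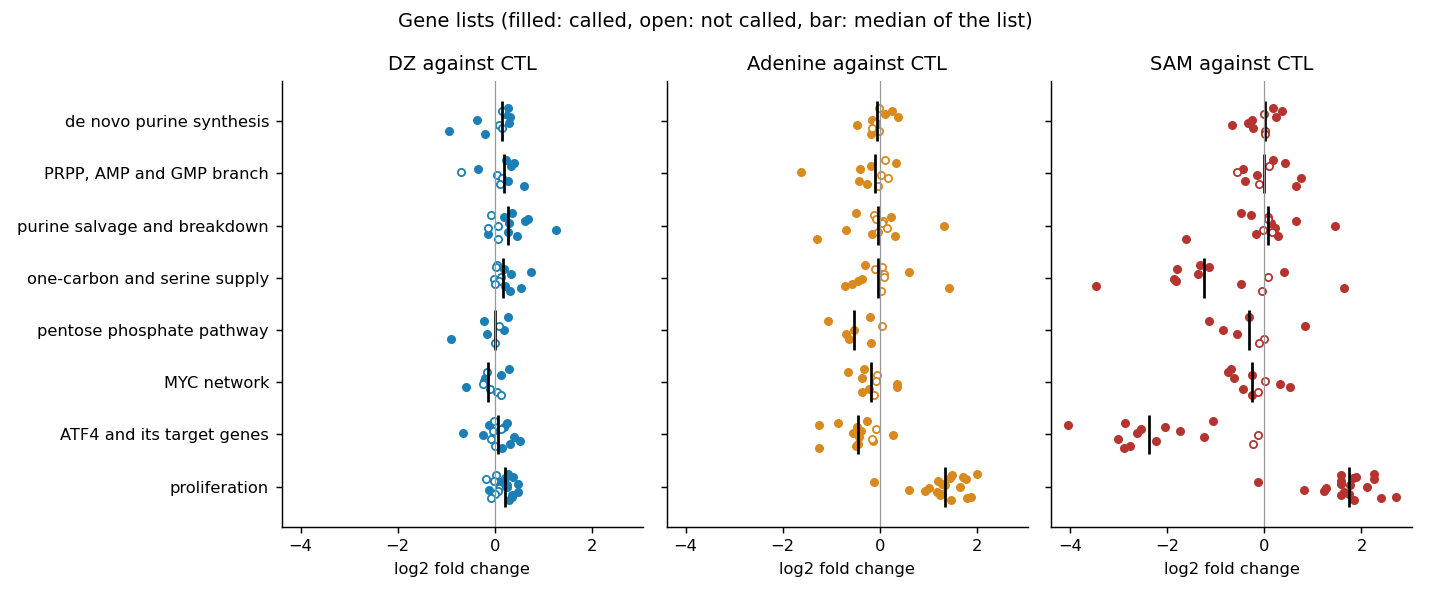
Log2 fold change against CTL (horizontal axes, shared) of the genes of 8 lists under DZ, adenine, and SAM. Each point is a gene, filled where called at an FDR of 0.01, and black bars are list medians. The de novo purine synthesis genes stay within 1 log2 unit of 0 in all 3 treatments, while the ATF4 list has a median of -2.39 and the proliferation list one of 1.74 under SAM.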

How the data were processed

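RNA of 12 libraries (4 groups of 3 dishes) was analyzed. Per the labels and the study's methods, the authors trimmed reads with Trimmomatic, aligned them to GRCm39 with HISAT2, and quantified transcripts with StringTie. The authors dropped genes under 1 CPM in any sample and normalized with the edgeR package. The authors deposited log2 CPM values, and every sample column was used. The method behind the scaling factors is not given in the sources used here. Solving for the library sizes with a prior count of 2 returned whole reads for 100% of the values (tolerance 0.1 read), which gave the depth. Reads are coverage-based estimates, so depth covers counting error only.

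The test was limma 3.58.1 (R 4.3.3; lmFit, contrasts, eBayes with a variance trend, 1 model of all groups, Benjamini-Hochberg over 12591 genes, FDR 0.01), after a test on simulated data. Ratios within a library were tested by two-sided exact permutation. Identifiers were matched to GENCODE vM39 (12575 of 12591), and transcripts were compared with blastn 2.17.0 (at least 90% identity over 200 bp). This search found 4 genes similar to Gmps and 1 each to Gart and Adsl, none of them in the expression table. Of 6 genes found for Paics, 2 were in it. Reads shared with genes outside it were not examined. Promoters are from RefSeq (GRCm38.p6).

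The members and gene lists were chosen with earlier results of these data known. The genes named are all 10 members, up to 3 called genes of each other list with the largest change per comparison, all genes of PRPP supply and the AMP and GMP branches, a pseudogene or paralog of a member in the table, and the gene most like each member by Pearson's r. Aprt, Mcm2, and the similar transcripts of Mipol1 and Arhgap12 were named after their values were seen, and for SAM against adenine only part of the genes this rule picks are named. Of the list genes so chosen, 1 is not reported here. Alternatives were other variance models, filters, scalings, a pseudocount of 1 CPM, voom on the recovered reads, an FDR of 0.05, a separate model per comparison, a replicate block, other lengths and promoter windows, and leaving out each library. Adding Impdh2-ps to Impdh2 was chosen after seeing the data. Python 3.11.15 with numpy 2.4.6, pandas 2.3.3, scipy 1.17.1, and matplotlib 3.10.9 was used.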

Additional observations from a re-analysis of the deposited data

How the results depend on the processing

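Of the 40 tests of the 10 genes in 4 comparisons, 18 of the 25 calls held in all alternatives at an FDR of 0.01, and they were 7 of 7 under DZ, 3 of 6 under adenine, 4 of 7 under SAM, and 4 of 5 between SAM and adenine. The number of calls stayed within 1.5 times of its value in every alternative, and without 1 library it was 7 to 8 under DZ, 5 to 7 under adenine, 6 to 7 under SAM, and 4 to 6 between SAM and adenine. The median log2 fold change of the 10 genes ranged, when 1 library was left out, from 0.11 to 0.17 for DZ, from -0.073 to -0.043 for adenine, from -0.016 to 0.012 for SAM, and from -0.11 to -0.055 for SAM against adenine. After quantile normalization it was 0.13, -0.024, 0.037, and -0.073, respectively, and with total-count scaling 0.17, 0.011, 0.13, and -0.034. Median centring gave -0.10 under adenine and -0.033 under SAM. Total-count scaling turned Gart under SAM from -0.0051 to 0.12, and raised the share of calls that were higher, over all genes, from 48.5% to 61.2% under SAM, from 48.6% to 63.2% for SAM against adenine, from 49.7% to 58.3% under adenine, and from 49.1% to 55.2% under DZ. No pairing of the dishes by replicate number was seen. Libraries with the same number deviated from their group means with r of -0.14 to 0.18 over the genes, and 5 of 12 libraries were most like those of their own number. With 3 dishes per group, this check could miss a pairing. With a replicate block, the calls were 7 under DZ, 5 under adenine, 7 under SAM, and 4 for SAM against adenine (Gart was lost under adenine and in SAM against adenine, with log2 fold changes of 0.12 and -0.12), and the medians were those without the block (0.15, -0.051, 0.0061, and -0.094). Where a cause is not given by the construction of an alternative, the cause was not tested. Changes near 0.1 on the log2 scale depend on the scaling and on single dishes, and 3 dishes per group limit the exact tests to p = 0.1.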
